A study of Mus musculus with 3 samples.

Results

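The genes described here are 10 immediate early genes of the mouse, namely Fos, Fosb, Fosl2, Jun, Junb, Jund, Egr1, Egr3, Btg2 and Nr4a1. They were taken by symbol from a table of 34617 gene rows, and all 10 have a row with a value above 0 in both RNA libraries. The O/Tet3 library came from sorted cells of mice that carry OMP-tTA and tetO-Tet3-GFP, in which a tetracycline transactivator under the olfactory marker protein gene switches on a transgene of the methylcytosine dioxygenase Tet3 with GFP. Its strain is Fvb, and since the driver is active in mature olfactory sensory neurons, the transgene is expected in those cells rather than in their precursors. The mOSN library came from sorted cells positive for EGFP of OMP-ires-EGFP mice on C57BL/6J, in which the reporter marks mature olfactory sensory neurons. In both groups the tissue is the main olfactory epithelium at an age of 4 weeks and the RNA is total RNA depleted of ribosomal RNA. Each group is 1 library, so there is no error between replicates, no test and no p-value, and genotype, strain, reporter and library cannot be told apart in any difference given here. The number of animals behind a library and the gate used for the O/Tet3 cells are not given in the sources used here. The remaining sample of the series, DNA of O/Tet3 mice enriched for 5-hydroxymethylcytosine, was not analysed here.

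Immediate early genes are transcribed within minutes of a stimulus, without new protein synthesis. In an olfactory sensory neuron an odorant raises cAMP, cyclic nucleotide-gated channels open, calcium enters, and kinases then act on factors such as CREB and the serum response factor that sit at the promoters of these genes. Fos and Egr1 transcripts are widely used as marks of recently active neurons in the olfactory system. Both libraries here are of sorted cells, and the part of activity in the animal or of handling in their levels was not tested. Fos and Jun proteins dimerise through leucine zippers into the transcription factor AP-1, Egr proteins are zinc finger factors, Nr4a1 is an orphan nuclear receptor, and Btg2 is an antiproliferative protein that binds the CCR4-NOT deadenylase.

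To show the regulatory sequence of Btg2, Junb and Jun, which differed by over 2-fold of value + 1 between the libraries, and of Fos and Nr4a1, which did not, the 250 bases before the gene start are printed 5′ to 3′ on the gene's own strand, from RefSeq on build GRCm38.p6. That build is not the one named for the expression table, which carries no coordinates. The capitals mark the cAMP response element TGACGTCA, the site bound by CREB, and its shorter form TGACG on either strand, which is CGTCA on the strand shown when it lies on the other one. The Btg2 window is chr1:134079156-134079405 on the minus strand, that of Junb chr8:84978749-84978998 on the minus strand, that of Jun chr4:95052223-95052472 on the minus strand, that of Fos chr12:85473640-85473889 on the plus strand, and that of Nr4a1 chr15:101266596-101266845 on the plus strand.
Btg2: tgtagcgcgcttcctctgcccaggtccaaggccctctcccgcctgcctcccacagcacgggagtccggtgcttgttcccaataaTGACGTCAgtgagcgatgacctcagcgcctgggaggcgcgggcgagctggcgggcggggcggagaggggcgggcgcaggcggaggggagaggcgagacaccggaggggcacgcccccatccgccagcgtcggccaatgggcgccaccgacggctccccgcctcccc
Junb: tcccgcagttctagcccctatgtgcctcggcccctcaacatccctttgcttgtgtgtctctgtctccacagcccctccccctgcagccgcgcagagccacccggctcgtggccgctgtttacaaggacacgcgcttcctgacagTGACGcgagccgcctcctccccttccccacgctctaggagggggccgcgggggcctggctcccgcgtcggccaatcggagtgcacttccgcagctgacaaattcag
Jun: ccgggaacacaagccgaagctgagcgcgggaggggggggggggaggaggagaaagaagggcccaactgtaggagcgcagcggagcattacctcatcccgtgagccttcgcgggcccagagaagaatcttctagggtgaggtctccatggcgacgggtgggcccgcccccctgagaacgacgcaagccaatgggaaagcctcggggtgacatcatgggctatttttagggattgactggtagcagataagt
Fos: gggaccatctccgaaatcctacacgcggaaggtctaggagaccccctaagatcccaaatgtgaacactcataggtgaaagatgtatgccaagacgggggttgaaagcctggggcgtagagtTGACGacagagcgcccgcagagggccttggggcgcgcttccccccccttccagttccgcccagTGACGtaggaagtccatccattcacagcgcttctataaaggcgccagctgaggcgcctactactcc
Nr4a1: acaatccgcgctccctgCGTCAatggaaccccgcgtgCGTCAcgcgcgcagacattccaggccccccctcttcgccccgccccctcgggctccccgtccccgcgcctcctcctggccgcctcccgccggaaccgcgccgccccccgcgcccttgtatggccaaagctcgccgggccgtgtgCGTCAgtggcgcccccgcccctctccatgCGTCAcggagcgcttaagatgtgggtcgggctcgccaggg

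The table of promoters matched 8 of the 10 genes, all but Egr1 and Egr3. Of these 8 windows only that of Btg2 held the whole element TGACGTCA, at bases -166 to -159 from the start, against 1.55% of the 32851 promoter windows of the table. The shorter form TGACG on either strand was in 5 of the 8, those of Fos, Fosb, Junb, Btg2 and Nr4a1, against 17.8% of all windows; in Btg2 both of its matches lie within the whole element. Fos held it at bases -129 to -125 and -66 to -62, Fosb at -60 to -56 and Junb at -106 to -102, and Nr4a1 held 4 copies. In the Jun window neither form was found, so it has no capitals. The EGR site GCGGGGGCG, on either strand, was in the windows of Fosb, Fosl2 and Nr4a1, against 2.57% of all. Neither the CArG box, to which the serum response factor binds, nor the AP-1 site TGANTCA was in any of the 8 windows. Of all windows, 1.47% held the CArG box and 6.75% the AP-1 site. At such low shares, 8 windows were too few for this absence to set the genes apart from other promoters. Sites outside the windows and sites that depart from the patterns were not searched for, and Egr1 and Egr3 had no window. Whether the genes lack these sites therefore cannot be told from the windows. A match describes the letters of the window only, and windows of related genes are not independent.

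Values are linear, obtained from the deposited log2 numbers, and a log2 ratio is O/Tet3 over mOSN of value + 1, a scale that understates differences of low genes. Tet3 had a value of 145 in O/Tet3 and 3.72 in mOSN, a log2 ratio of 4.95, which goes with the labels. The 6 largest rows of the table took 96.9% of the summed values in O/Tet3 and 90.05% in mOSN. In rows of low value 1 sequencing read was worth 1.89 times as much in O/Tet3 as in mOSN, so an equal value rests on fewer reads there. Rows that reached a value of 1 in both libraries had a median log2 ratio of 0.21, and ratios called centred have this shift subtracted. Rows were compared when they reached a value of 1 in at least 1 of the libraries, and the bound for calling one higher or lower was a log2 ratio of 1 in size.

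Across the 10 genes the libraries differed in the levels of Btg2, Junb and Jun, while Fos and Fosb stood at nearly the same level in both. Of the 8 compared genes, 2 were higher in O/Tet3 (Btg2 and Junb) and 1 was lower (Jun), where 16.5% of all 12943 compared rows were higher and 12.0% were lower. Each of these 3 stayed past the bound when ratios were centred, where 11.3% of all compared rows were higher and 15.1% lower. On either scale, 8 genes are too few for such counts to set them apart from other rows. The median log2 ratio of the 8 was -0.06, against 0.21 over all compared rows. Fosl2 and Egr3 stayed under a value of 1 in both libraries and were not compared. By value alone, 5 of the 10 genes were higher in O/Tet3 and 5 lower, and their summed value was 74.4 in O/Tet3 and 79.02 in mOSN.

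**Figure D1:**
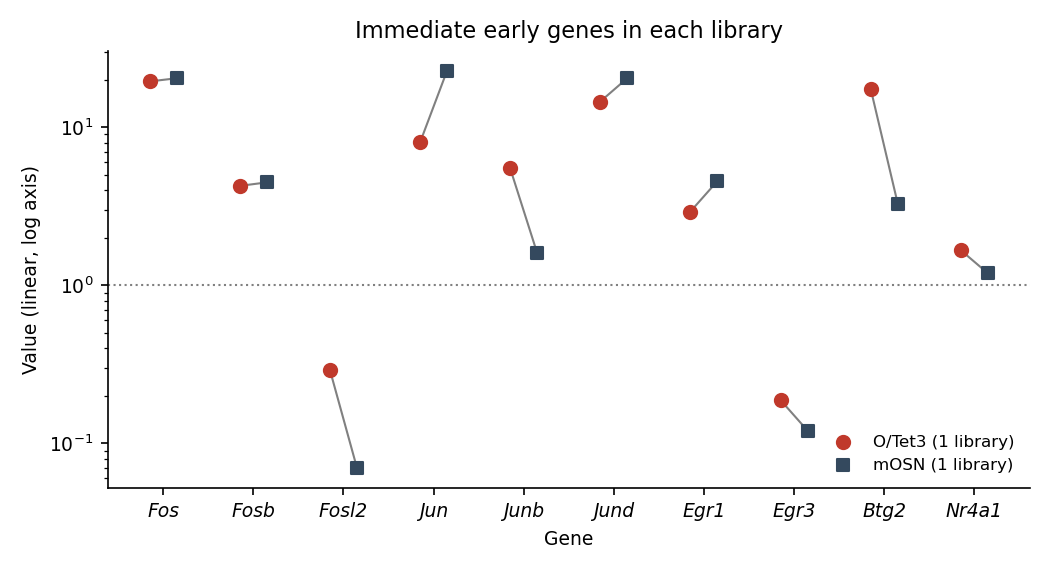
Linear value of each of the 10 immediate early genes (log axis) in the O/Tet3 library (circles) and the mOSN library (squares), 1 library each, with the dotted line at a value of 1. Fos stands at 19.5 in O/Tet3 and 20.4 in mOSN, while Btg2 (17.5 in O/Tet3, 3.29 in mOSN) and Junb (5.49 in O/Tet3, 1.59 in mOSN) are higher in O/Tet3 and Jun (8.02 in O/Tet3, 22.8 in mOSN) is lower.

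Fos, the partner that gives AP-1 its inducible part, had a value of 19.5 in O/Tet3 and 20.4 in mOSN. Its log2 ratio was -0.06, and -0.27 centred, at percentile 36.7 of the ratios of all compared rows. Fosb, which encodes another inducible AP-1 partner and a truncated splice form that builds up with repeated stimulation, had a value of 4.26 in O/Tet3 and 4.48 in mOSN. Its log2 ratio was also -0.06, and the value of Fosb relative to Fos within a library was 0.218 in O/Tet3 and 0.219 in mOSN. The values of Fos and of Fosb each differed 1.05-fold between the libraries. Fosl2, which encodes the Fos-related antigen Fra-2, was at 0.291 in O/Tet3 and 0.0698 in mOSN. Its values differed 4.16-fold, but the log2 ratio of value + 1 was 0.27, and 1.20 with a pseudocount of 0.1. These Fosl2 values equal 5.96 times in O/Tet3 and 2.64 times in mOSN what 1 read was worth for olfactory receptor genes of 900 to 1000 bases. A read is worth less on a longer transcript, so these multiples are no more than a guide to the few reads behind the fold.

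Jun, the AP-1 subunit that can also pair with itself, was at 8.02 in O/Tet3 and 22.8 in mOSN. It was 2.85-fold lower in O/Tet3, with a log2 ratio of -1.40 and -1.61 centred, at percentile 6.80 of all compared rows. Junb, which binds the same sites and can restrain Jun, was at 5.49 in O/Tet3 and 1.59 in mOSN. It was 3.44-fold higher in O/Tet3, with a log2 ratio of 1.32 and 1.12 centred, at percentile 90.8. Jund, the Jun gene that most tissues transcribe steadily without a stimulus, was at 14.5 in O/Tet3 and 20.5 in mOSN. Its log2 ratio of -0.47, or -0.67 centred, was within the bound. The 3 Jun genes therefore did not share a direction.

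Ratios within a library do not depend on how the 2 libraries were scaled. Junb relative to Jun was 0.684 in O/Tet3 and 0.0699 in mOSN, a 9.79-fold difference. Of the summed value of the Jun family, which was 28.1 in O/Tet3 and 44.9 in mOSN, Junb held 19.6% in O/Tet3 and 3.55% in mOSN. Jun held 28.6% in O/Tet3 and 50.8% in mOSN, and Jund held 51.8% in O/Tet3 and 45.6% in mOSN. Jun and Jund were close in mOSN, while Jun was the lower of them in O/Tet3. Fos held 81.1% of the Fos family in O/Tet3 and 81.8% in mOSN. Fos relative to Jun was 2.43 in O/Tet3 and 0.895 in mOSN, and the summed Fos family relative to the summed Jun family was 0.857 in O/Tet3 and 0.556 in mOSN.

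**Figure D2:**
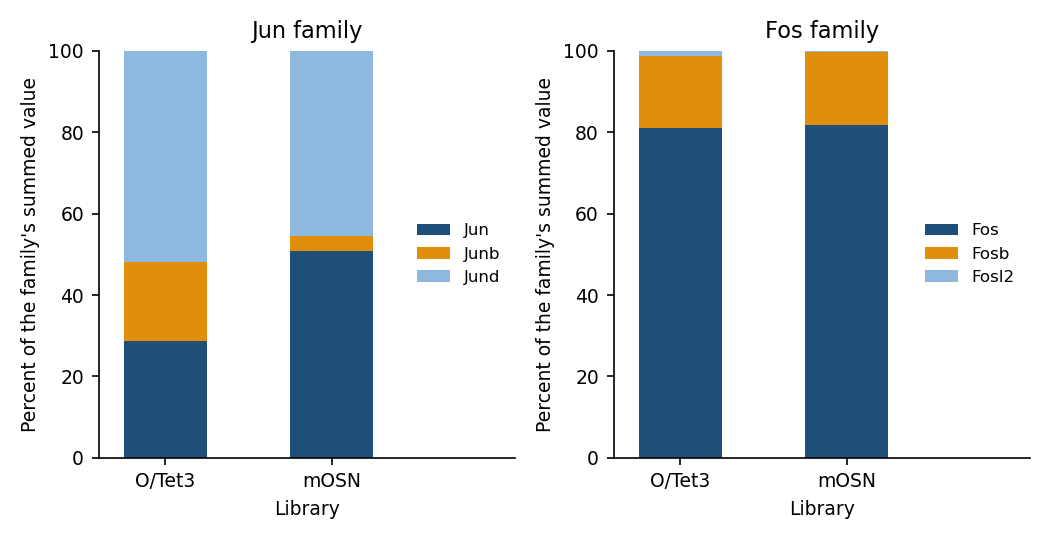
Share (percent) of each gene in the summed value of the Jun family (left) and the Fos family (right), with the O/Tet3 library left of the mOSN library in each panel. Junb takes 19.6% of the Jun family in O/Tet3 and 3.55% in mOSN, while the shares within the Fos family are nearly equal.

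Jun and Junb have no introns, so their length in RefSeq gives a rough idea of the reads behind their values. Taking the worth of 1 read as inversely proportional to length, Junb rested on about 220 reads in O/Tet3 and 118 in mOSN, and Jun on about 557 in O/Tet3 and 2917 in mOSN. These numbers are estimates from olfactory receptor genes with a median length of 942 bases, and they say nothing on the spread between animals.

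Egr1, a zinc finger factor that responds to the same kinases as Fos, was at 2.93 in O/Tet3 and 4.57 in mOSN. The log2 ratio was -0.50, or -0.71 centred, which is within the bound, and Egr1 relative to Fos was 0.150 in O/Tet3 and 0.224 in mOSN. Egr3, another zinc finger factor that activity induces in neurons, was at 0.188 in O/Tet3 and 0.120 in mOSN. Its values were 3.85 times the worth of 1 receptor read in O/Tet3 and 4.54 times in mOSN, and its log2 ratio of 0.08 became -0.12 when centred. Nr4a1, which encodes the nuclear receptor Nur77, was at 1.67 in O/Tet3 and 1.19 in mOSN, a log2 ratio of 0.28, or 0.08 centred. Of these genes Egr1 and Nr4a1 were compared, and neither was past the bound; with no replicate, no interval can be put on the differences.

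Btg2 had the largest log2 ratio of the 10 genes. It was at 17.5 in O/Tet3 and 3.29 in mOSN, 5.31-fold higher in O/Tet3, with a log2 ratio of 2.11 and 1.90 centred, at percentile 97.4 of all compared rows. Btg2 is a target of p53 and of growth factor signalling, and in the developing brain it marks progenitors about to produce neurons. Relative to Fos, Btg2 was 0.898 in O/Tet3 and 0.161 in mOSN. Its family member Btg1 was at 7.62 in O/Tet3 and 4.93 in mOSN, so that Btg2 exceeded Btg1 2.30-fold in O/Tet3 and was at 0.668 of it in mOSN.

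**Figure D3:**
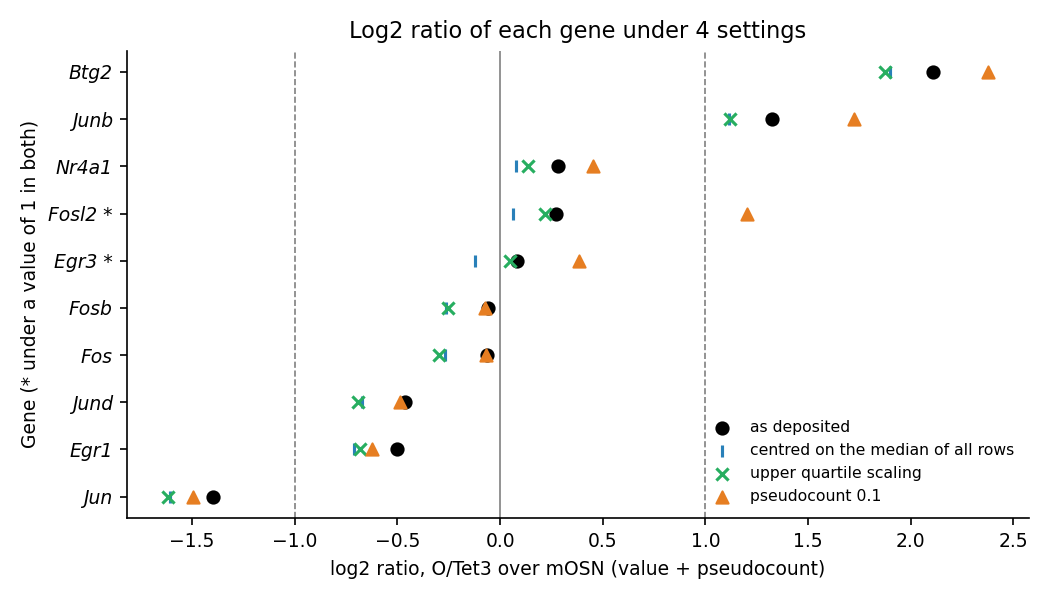
Log2 ratio (O/Tet3 over mOSN) of the 10 genes as deposited with a pseudocount of 1, centred on the median of all rows, after upper quartile scaling, and with a pseudocount of 0.1, with dashed lines at -1 and 1. Btg2 and Junb lie above 1 and Jun below -1 in each of the 4 settings, and Fosl2 passes 1 only with the pseudocount of 0.1.

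In order of level, O/Tet3 had Fos, Btg2, Jund, Jun, Junb, Fosb, Egr1, Nr4a1, Fosl2 and Egr3, from high to low. In mOSN the order was Jun, Jund, Fos, Egr1, Fosb, Btg2, Junb, Nr4a1, Egr3 and Fosl2. Btg2 had rank 2 of the 10 in O/Tet3 and rank 6 in mOSN, and Jun had rank 4 in O/Tet3 and rank 1 in mOSN. Such an order between genes assumes that the values are per length, as Cuffdiff gives them, and without replicates no neighbours in it can be told apart. Among rows above 0, Fos stood at percentile 90.4 in O/Tet3 and 93.1 in mOSN.

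The other genes of the same families were mostly low. None of the 5 compared was past the bound, against 28.5% of all compared rows. Among the Btg and Tob genes, Btg3 was at 2.53 in O/Tet3 and 1.67 in mOSN, Tob1 at 13.4 in O/Tet3 and 17.2 in mOSN, and Tob2 at 0.832 in O/Tet3 and 1.40 in mOSN. Egr2 was at 0.487 in O/Tet3 and 0.489 in mOSN, Egr4 at 0.676 in O/Tet3 and 0.0738 in mOSN, Nr4a2 at 0.111 in O/Tet3 and 0.0221 in mOSN, and Nr4a3 at 0.480 in O/Tet3 and 0.171 in mOSN. The Egr corepressor gene Nab1 was at 5.98 in O/Tet3 and 5.37 in mOSN, Nab2 was listed at 0 in O/Tet3 and at 0.0859 in mOSN, and Fosl1 was listed at 0 in both. The median log2 ratio of the 5 was 0.13, and -0.07 centred.

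Without centring, the log2 ratios of genes for other AP-1 partners were smaller in size than those of Jun and Junb. Of 13 compared out of 19, none was higher and 1 was lower, against 16.5% and 12.0% of all compared rows. The median log2 ratio of the 13, at 0.16, turned to -0.05 when centred. The lower gene was Atf7, an Atf2 relative that can pair with Jun, at 9.20 in O/Tet3 and 20.5 in mOSN. Creb3, a membrane-bound relative of CREB, was at 43.3 in O/Tet3 and 22.5 in mOSN, and the small Maf gene Mafg at 1.78 in O/Tet3 and 4.08 in mOSN. Nfe2l2, the oxidative stress factor that pairs with small Maf proteins, was at 32.4 in O/Tet3 and 57.1 in mOSN. Centred, 3 of the 13 were lower, and Atf7 at -1.28 exceeded Junb at 1.12 in size.

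All 33 genes listed for the kinases and factors upstream of the immediate early genes were compared (median 0.03, or -0.18 centred). Of these 2 were higher and 2 lower, against 16.5% and 12.0% of all compared rows. Camk2d, a calcium/calmodulin-dependent kinase subunit, was at 36.9 in O/Tet3 and 134 in mOSN, and Mapk14, which encodes the stress kinase p38 alpha, at 4.14 in O/Tet3 and 12.6 in mOSN. Rps6ka5, which encodes the nuclear kinase MSK1 that phosphorylates CREB, was at 6.59 in O/Tet3 and 2.17 in mOSN, and Rps6ka1, compared through its value in O/Tet3 alone, at 2.04 in O/Tet3 and 0.326 in mOSN. The higher count became 1 when centred, since Rps6ka1 then had a log2 ratio of 0.99, and the lower count became 5.

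Of the 25 other rapid primary response genes, 16 were compared, 3 being higher and 2 lower, against 16.5% and 12.0% of all compared rows. The median of the 16 was 0.45, or 0.24 centred. Klf10, a zinc finger factor induced by TGF-beta, was at 8.74 in O/Tet3 and 2.47 in mOSN, and Klf6 at 10.1 in O/Tet3 and 4.40 in mOSN. Gadd45b, a stress-inducible gene also linked to DNA demethylation, was at 1.70 in O/Tet3 and 0.319 in mOSN. Ppp1r15a, which encodes the phosphatase subunit GADD34 of the stress response, was at 7.61 in O/Tet3 and 25.6 in mOSN, and the phosphatase gene Dusp5 at 0.834 in O/Tet3 and 3.91 in mOSN. Gadd45b was compared through O/Tet3 alone and Dusp5 through mOSN alone. Centred, only Klf10 of the higher genes stayed past the bound and 3 genes were lower, so the list held genes of both directions on either scale.

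Genes listed as effectors of neuronal activity differed among themselves. Of 14, 7 were compared, Pcsk1 through its value in O/Tet3 alone (median 0.91, or 0.70 centred, but -0.03 with a floor of 5). Of the 7, 3 were higher and 1 lower, against 16.5% and 12.0% of all compared rows. Cartpt, which encodes the neuropeptide precursor CART, was at 410 in O/Tet3 and 52.7 in mOSN. Pcsk1, a prohormone convertase, was at 3.64 in O/Tet3 and 0.506 in mOSN, and Syt4, a synaptotagmin, at 25.0 in O/Tet3 and 9.90 in mOSN, whereas the pentraxin Nptx2 was at 5.40 in O/Tet3 and 14.7 in mOSN. Among 6 genes tied to odour activity in olfactory neurons, 5 were lower and 1 higher (median -2.92), against the same 12.0% and 16.5%. This list does not separate genes that activity raises from genes that it lowers, so the count gives no direction of activity. Kirrel2, an adhesion molecule of axon sorting, was at 3.47 in O/Tet3 and 57.1 in mOSN, Lrrc3b at 1.68 in O/Tet3 and 25.6 in mOSN, the calcium-binding protein gene S100a5 at 235 in O/Tet3 and 1356 in mOSN, and the histone gene Hist2h2be at 16.1 in O/Tet3 and 176 in mOSN. The higher gene was Calb2, which encodes calretinin, at 108 in O/Tet3 and 39.7 in mOSN. All 11 mature neuron markers were lower in O/Tet3 as well (median -2.10), against 12.0% of all compared rows. The part of these markers in the lower genes tied to odour activity was not tested.

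**Figure D4:**
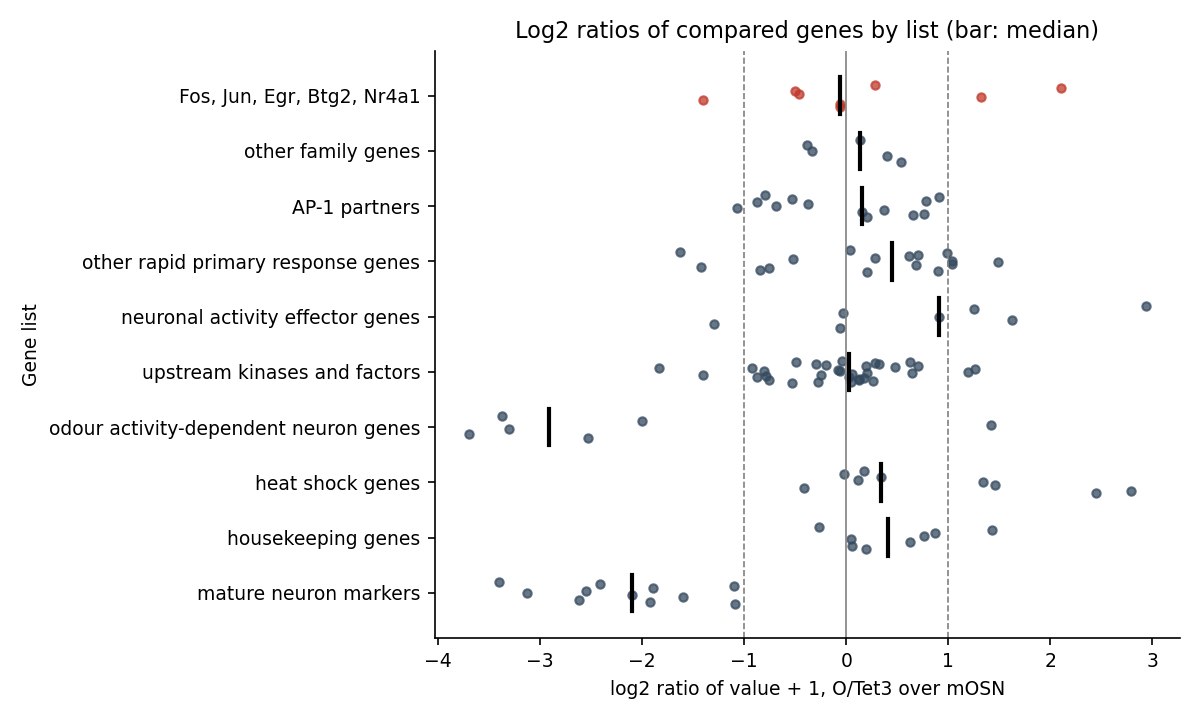
Log2 ratio of value + 1 (O/Tet3 over mOSN) of each compared gene by list, 1 point per gene, with the list median as a black bar and dashed lines at -1 and 1. The immediate early genes (top row) have a median of -0.06, while the mature neuron markers (bottom row) all lie below -1.

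Among the genes of the activity and family lists whose 2 values lay nearest to those of Fos, by distance in the 2 log2 values over 106 candidates, were Mef2a and Rheb. Mef2a was at 19.3 in O/Tet3 and 27.5 in mOSN. Nearest to Btg2 were Klf6, Nfkbia and Klf10, at distances of 0.81 to 0.98. With only 2 libraries this likeness means no more than similar levels in both.

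Markers of the sorted cells differed beside these results. All 11 markers of mature olfactory sensory neurons were present and all were lower in O/Tet3 (median -2.10), against 12.0% of all compared rows. Their summed value was 762 in O/Tet3 and 3471 in mOSN. Omp was at 139 in O/Tet3 and 298 in mOSN, Stoml3 at 285 in O/Tet3 and 1518 in mOSN, and Gnal at 95.0 in O/Tet3 and 411 in mOSN. In such bulk samples fewer cells of a type and less RNA per cell cannot be told apart. Fos relative to Omp was 0.140 in O/Tet3 and 0.0686 in mOSN, so that Fos was 2.04-fold higher per unit of Omp in O/Tet3. This figure depends on the marker, since the log2 ratio of Omp was -1.09 against the median of -2.10. Markers of immature neurons, 9 in all, held 4 higher and 2 lower genes, against 16.5% and 12.0% of all compared rows. The summed value of the 9 was 130 in O/Tet3 and 66.5 in mOSN. Gap43 was at 34.8 in O/Tet3 and 6.41 in mOSN, and Stmn1 at 34.7 in O/Tet3 and 6.72 in mOSN. Hdac2, within the bound, was at 28.5 in O/Tet3 and 14.7 in mOSN. Sox11, also higher but compared through O/Tet3 alone, was at 6.05 in O/Tet3 and 0.383 in mOSN. The lower genes were Dpysl5, at 1.46 in O/Tet3 and 7.98 in mOSN, and Trib3. Trib3, compared through mOSN alone, was at 0.881 in O/Tet3 and 3.15 in mOSN. The part of these markers in the levels of Btg2, Junb and Jun was not tested.

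Markers of other cells of the epithelium had smaller summed values than those of mature neurons in both libraries. The 6 progenitor markers summed to 2.65 in O/Tet3 and 1.43 in mOSN. Kit was at 1.73 in O/Tet3 and 0.741 in mOSN, Top2a at 0.793 in O/Tet3 and 0.491 in mOSN, and Mki67 at 0.0517 in O/Tet3 and 0.144 in mOSN. The 8 sustentacular markers summed to 15.5 in O/Tet3 and 34.7 in mOSN, the 6 gland and microvillous markers to 3.56 in O/Tet3 and 3.59 in mOSN, and the 5 ensheathing glia markers to 1.94 in O/Tet3 and 6.88 in mOSN. Of the gland and microvillous markers Pou2f3, compared through O/Tet3 alone, was higher, at 2.90 in O/Tet3 and 0.582 in mOSN. Ascl3 and Cftr, compared through mOSN alone, were lower, listed at 0 in O/Tet3 and at 1.58 and 1.02 in mOSN. Of all compared rows, 16.5% were higher and 12.0% lower. The 4 horizontal basal cell markers were listed at 0 in O/Tet3 and summed to 0.271 in mOSN. The 9 blood and immune markers summed to 43.1 in O/Tet3 and 66.9 in mOSN, most of it hemoglobin, and the 6 vessel and stroma markers to 0.616 in O/Tet3 and 0.499 in mOSN.

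Heat shock genes, which cells transcribe under stress, differed in part between the libraries. Of 9 compared out of 10, 4 were higher in O/Tet3 and none lower, against 16.5% and 12.0% of all compared rows. The median of the 9 was 0.34, or 0.13 centred. The other 5 were within the bound, and the summed value of the 10 was 599 in O/Tet3 and 591 in mOSN. Hspa1b was at 14.2 in O/Tet3 and 1.19 in mOSN, Hspa1a, compared through O/Tet3 alone, at 8.44 in O/Tet3 and 0.725 in mOSN, Hsph1 at 33.5 in O/Tet3 and 11.6 in mOSN, and Hspe1 at 34.6 in O/Tet3 and 13.0 in mOSN. Their part in the levels of the immediate early genes was not tested. Of 8 housekeeping genes 1 was higher and none lower, against the same shares of all compared rows (median 0.41, or 0.20 centred). The higher gene was Pgk1, at 16.3 in O/Tet3 and 5.42 in mOSN. Gapdh was at 7.56 in O/Tet3 and 7.25 in mOSN, and Actb at 201 in O/Tet3 and 176 in mOSN.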

How the data were processed

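RNA of sorted cells was measured in 2 libraries, O/Tet3 and mOSN, with ribosomal RNA removed and 16 cycles of PCR, per the labels' protocols. Build mm9 and the tools Bowtie, Bowtie2 and Cuffdiff are given by the submitters' processing notes with neither version nor role; the annotation and the strand setting are not given in the sources used here. The authors' deposited table holds log2 values per gene and library and their difference. Undoing a log2(value + 1) transform of the deposited columns gave numbers with no more than 6 digits in 99.3% of O/Tet3 and 99.4% of mOSN values above 0.01 (relative tolerance 1e-09). The file names no linear unit and gives neither read counts nor total depth. The column names, short forms of the genotypes, assigned the columns to samples.

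Linear values, log2 ratios, counts past 2-fold and list medians were computed with Python 3.11.15, numpy 2.4.6 and pandas 2.3.3, plotted with matplotlib 3.10.9, and checked on simulated data. With 1 library per group no test was possible. The worth of 1 read was read from the steps of values under 0.3. The 10 genes, the 21 lists (4 of them the genes themselves and their families) and the alternatives were chosen with earlier results of these data known. All list genes were found in the table. Named genes are the 10 genes, Tet3, Omp, every gene of their families, up to 4 compared genes of each other list with the largest log2 ratio, and up to 3 of each marker list with the highest value; genes outside this rule were named after their values were seen, where a count or a comparison needed them. Some genes that the rule selects are left out of the text. None of the 10 genes overlaps another RefSeq gene. The planned comparison of proteins was not done here.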

Additional observations from a re-analysis of the deposited data

How the results depend on the processing

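With 1 library per group and no replicate, none of these values carries an error, and each holds for these 2 libraries only. Under the 8 alternatives the counts of 2 higher and 1 lower immediate early genes were the same in 7; with a 3-fold bound they were 1 (Btg2) and 0. The median log2 ratio of the compared genes was -0.070 with a pseudocount of 0.1, -0.071 with no pseudocount, -0.27 centred, -0.28 after upper quartile scaling, -0.064 with a floor of 5 and 0.012 with no floor, where Fosl2 and Egr3 enter. Over all 12943 compared rows, 745 were higher and 673 lower at 3-fold. With a floor of 5 they were 1401 and 793 of 7149, where fewer rows are counted by construction. The background grew with a smaller pseudocount. It was 3025 higher and 2025 lower of 12943 with a pseudocount of 0.1, and 2945 and 1609 of 12277 with none. Of rows past the bound on the deposited scale, 57.9% were higher, and 42.8% when centred. Log2 ratios ran from 1.88 to 2.41 for Btg2, from 1.12 to 1.78 for Junb and from -1.62 to -1.40 for Jun over the deposited scale and the alternatives in pseudocount and scaling. Fosl2 ran from 0.06 to 2.06 over these, and passed the bound with a pseudocount of 0.1 and with none. Of the counts in the other activity, family, heat shock and housekeeping lists, 98 were within 1.5 times the reported one and 30 were not. Counts in the cell type marker lists were not computed under the alternatives. The median of the activity effector genes was 0.91 and became -0.03 with a floor of 5, which leaves out Pcsk1 and Scg2, both with positive ratios. No paired analysis was possible because both groups hold only 1 library.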
